A study of Mus musculus with 6 samples.

Results

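The 45 genes described here encode the actin and myosin filaments of the cell, the proteins that bind and turn over these filaments, and regulators of contraction, and many of them are known targets of the transcription factor SRF. They were taken as a fixed list of symbols, chosen with earlier results of these data known, and all 45 were found among the 55401 genes with a count. They fall into 8 groups by role: 4 actins, 10 calponins and other actin binders, 6 myosin subunits and their kinase, 4 tropomyosins, 2 intermediate filament proteins, 8 LIM and PDZ-LIM proteins, 8 upstream regulators of contraction (small GTPases, kinases and formins), and 3 genes of cofilin-driven actin turnover. Each of the 45 had enough counts to be tested.

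The counts come from RNA-Seq of NIH3T3, an immortalized line of mouse embryonic fibroblasts, with or without the fusion protein TAZ-CAMTA1 (TC), and, for the cells with TC, with or without aurintricarboxylic acid (ATA). TC joins the TEAD-binding part of TAZ, the product of WWTR1, to part of CAMTA1 and drives the vascular sarcoma epithelioid hemangioendothelioma. ATA is a small molecule that was examined for its ability to break up the binding of TAZ to TEAD. The 6 libraries comprised 2 of cells carrying empty vector and given DMSO (EV), 1 of cells expressing TC and given DMSO (TC), and 3 of cells expressing TC and given 10 μM ATA (TC + ATA), each for 48 h. TC was expressed from an introduced construct in 1 cell line, ATA was given at 1 dose and 1 time, and no EV cells with ATA were analysed here. Neither the labels nor the methods say whether the libraries of a group came from separate cultures, so p-values measure the spread between these libraries.

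Actin monomers hold the cofactors MRTF-A and MRTF-B in the cytoplasm. When the ROCK kinases and the formins drive monomers into filaments, the MRTFs are released, enter the nucleus and act with SRF at a DNA element called the CArG box, which lies in many genes of the contractile machinery. The same filaments regulate YAP and TAZ, which act through TEAD proteins, and fibroblasts that turn on smooth muscle actin in stress fibers are called myofibroblasts.

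Library totals ran from 58471484 to 74413193 counts. The 2 EV libraries differed from each other more than the TC + ATA libraries did, with a chi-square per degree of freedom of 63.0 for the EV pair and 6.02 to 6.74 for the 3 TC + ATA pairs. The EV pair also differed more than TC did from any TC + ATA library (23.4 to 25.5), and its spread enters every test. Leaving out either EV library ended no call of a member in any comparison, but it added calls, which are given where they matter. Levels are library-size-scaled counts with TMM factors (CPM), and a gene was called when the adjusted p of the edgeR fit over all 18539 genes tested was at most 0.05. The 7 fibroblast markers summed to 11908 to 15027 CPM, whereas 5 endothelial markers summed to 1.69 to 3.75 CPM and 5 epithelial markers to 0.105 to 0.494 CPM. Of the fusion partners, Wwtr1 was higher in TC than in EV (0.37 ± 0.08 SE, adjusted p = 0.00697) and Camta1 was not called (log2 fold change 0.16 ± 0.13 SE, adjusted p = 0.411). The counts are of mouse genes, and the fusion transcript was not counted as a feature of its own. In bulk RNA, fewer cells of a type and less RNA per cell cannot be told apart.

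RefSeq promoters (GRCm38.p6, from 250 bases before to 50 bases after each start) were found for 38 of the 45 genes. They were searched on both strands for the CArG box, here CC, then 6 bases that are each A or T, then GG, and for the TEAD core motif GGAATG. A CArG box lay in a promoter of 7 of these 38 genes (18.4%), against 488 of 27025 genes overall (1.81%), and the TEAD core lay in 9 (23.7%), against 16.6% overall. The 7 genes with a CArG box were Acta1, Actg1, Cnn2, Myl6, Myl9, Fhl1 and Fhl2, and Fhl2 had a box at each of 2 starts. The TEAD core was found in Acta1, Acta2, Tagln2, Cald1, Lmod1, Smtn, Myh10, Mylk and Tpm1. These matches describe the letters only, and a gene without a match has no such letters in this window. Because the list was drawn up partly from known SRF targets, its share of CArG boxes beside that of all genes is no independent result. Promoters of Actg2, Tagln, Synpo, Myh11, Csrp2, Rock1 and Diaph1 were not used here.

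The sequences given here hold the CArG boxes of all 7 genes, and that of Acta2 is added because it is 1 of the 2 members called between TC + ATA and TC. Capitals mark the CArG box, or the TEAD core in Acta2, and each run reads 5′ to 3′ on the strand of its gene. The Acta2 stretch (chr19:34255502-34255531, minus strand) starts its motif 146 bases before the RefSeq start, and there GENCODE annotates an exon of Acta2. The Myl9 stretch (chr2:156775214-156775419, plus strand) holds its box 161 bases before the start. The others are from chr8:123894819-123894868 (Acta1, minus strand, 73 bases before the start), chr11:120348556-120348605 (Actg1, minus, 90 bases), chr10:79988524-79988573 (Cnn2, plus, 56 bases), chr10:128493040-128493069 (Myl6, minus, 50 bases), chrX:56779561-56779610 (Fhl1, plus, 102 bases), and chr1:43196838-43196867 and chr1:43163963-43164012 (Fhl2, minus, 96 and 31 bases). GENCODE annotates an exon at the Myl6 box and at the upstream Fhl2 box as well.
Acta2: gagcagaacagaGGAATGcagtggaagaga
Myl9: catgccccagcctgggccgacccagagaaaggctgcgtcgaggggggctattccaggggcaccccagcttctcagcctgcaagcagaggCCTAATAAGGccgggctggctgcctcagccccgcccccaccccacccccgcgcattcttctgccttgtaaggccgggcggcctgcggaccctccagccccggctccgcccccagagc
Acta1: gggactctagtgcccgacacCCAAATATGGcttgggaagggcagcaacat
Actg1: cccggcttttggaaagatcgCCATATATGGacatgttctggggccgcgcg
Cnn2: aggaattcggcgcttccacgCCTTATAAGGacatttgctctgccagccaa
Myl6: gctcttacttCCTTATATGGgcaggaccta
Fhl1: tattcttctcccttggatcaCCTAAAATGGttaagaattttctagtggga
Fhl2, upstream start: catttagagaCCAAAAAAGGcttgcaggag
Fhl2, downstream start: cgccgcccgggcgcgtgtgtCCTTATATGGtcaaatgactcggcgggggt

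Per kilobase of exon (RPKM, from GENCODE M21 lengths), the most abundant members were Vim at 588 to 1022 RPKM, Actg1 at 594 to 754 RPKM and Acta2 at 157 to 565 RPKM. Cfl1, Cnn2, Tpm4 and Myl6 followed, with lowest values between 146 and 297 RPKM. At the other end, 6 members had a mean under 5 CPM, and these were Actg2, Tagln, Cnn1, Lmod1, Myh11 and Mylk, all of which are expressed in smooth muscle. Transgelin (Tagln) lay between 0.315 and 0.776 CPM and smooth muscle myosin heavy chain (Myh11) between 0.0802 and 0.633 CPM, which for Myh11 is 6 to 36 counts per library. The Tagln counts are uncertain, since 1349 of its 1988 exonic bases overlap exons of Pcsk7 and Gm48529 on the opposite strand and the library kit does not mark strand. Myocd, the smooth muscle cofactor of SRF, had 0 counts in 4 of the 6 libraries. Smaller opposite-strand overlaps also apply to Mylk (772 of 11263 bases), Cnn3 (538 of 3037), Cfl1 (468 of 2844) and Rhoa (356 of 7494).

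In TC against EV, 16 of the 45 genes were higher and 8 were lower, and 21 were not called. The background over the whole table was 14.8% of tested genes higher and 13.2% lower. Among the called members, the largest increases were those of Pdlim1, Myh9 and Cnn2 and the largest decreases those of Synpo, Csrp2 and Fhl1. The median log2 fold change of the 45 was 0.10, beside −0.03 over all genes, and the called members ranged from −1.87 to 1.55. No member passed an absolute log2 fold change of 2, a size reached upward by 2.36% and downward by 1.27% of all genes. TC has 1 library, so its own spread was taken from the other groups. A fit of EV and TC alone kept 10 members higher.

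**Figure D1:**
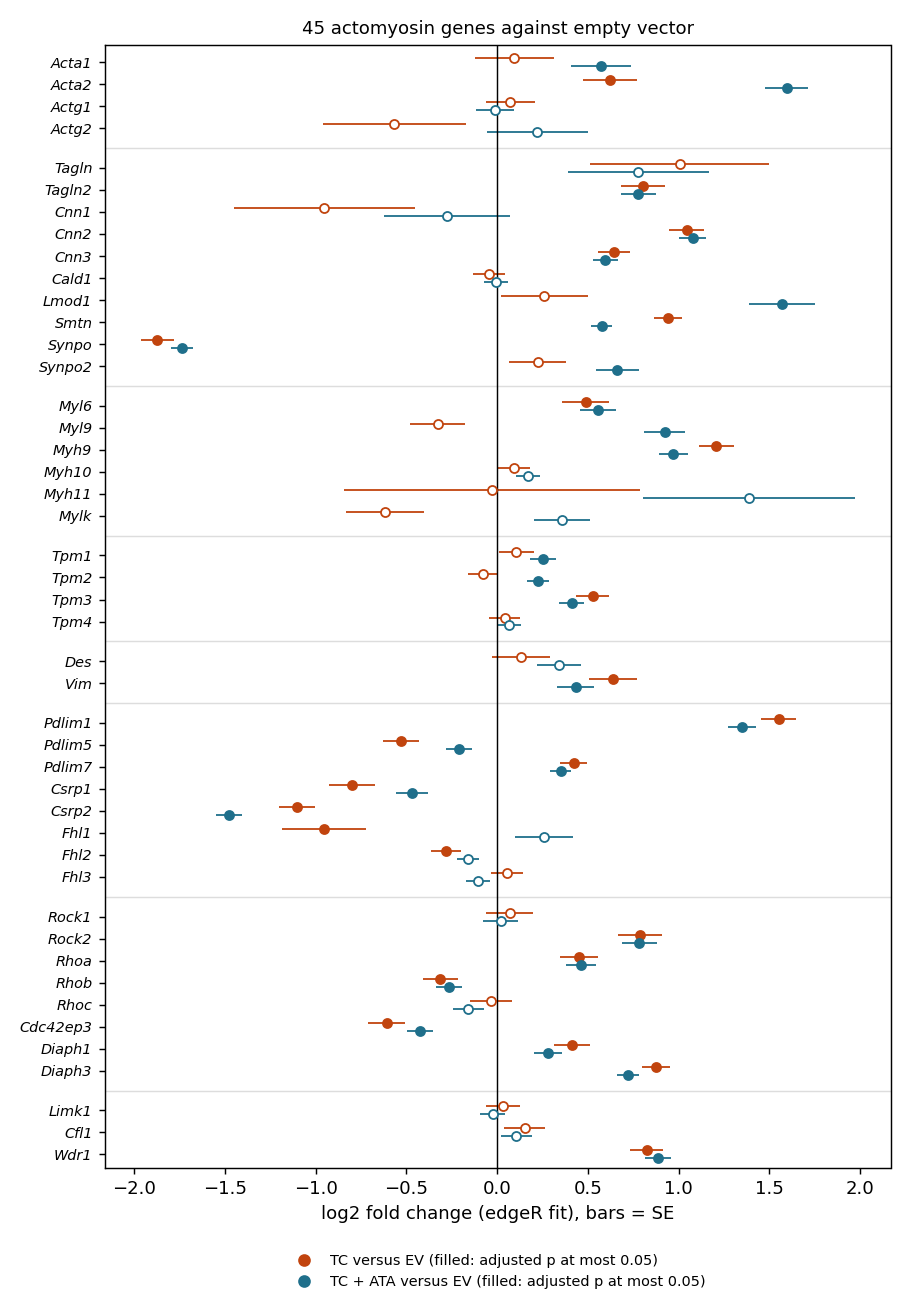
Log2 fold change of each of the 45 genes in TC versus EV (orange) and TC + ATA versus EV (blue), grouped by role, with the standard error of the edgeR fit as bars and filled points for an adjusted p of at most 0.05. Both comparisons share the EV libraries. Pdlim1 lies farthest to the right in TC versus EV at 1.55 and Synpo farthest to the left at −1.87.

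Among the actins, only Acta2 was called in TC. Acta2 (ENSMUSG00000035783, chr19:34241090-34255590, GRCm38, as for the positions that follow) encodes smooth muscle α-actin, the marker of myofibroblasts, and was measured at 460.1 and 345 CPM in EV, 620.0 CPM in TC, and 1242, 1229.8 and 1181 CPM in TC + ATA. TC lay above both EV libraries, with a log2 fold change of 0.62 ± 0.15 SE, adjusted p = 0.0127. The cytoplasmic γ-actin gene Actg1 was measured at 2003 and 1579.8 CPM in EV, 1885 CPM in TC, and 1798, 1789 and 1745 CPM in TC + ATA, and its TC value lay between those of the EV libraries. Skeletal α-actin (Acta1) was measured at 249.9 and 172 CPM in EV, 226 CPM in TC, and 368, 303 and 272 CPM in TC + ATA, also with TC between the EV libraries. The coding regions of actins are close to identical and several have pseudogenes, so reads may have been shared among them at counting, which was not tested.

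Of the 10 calponins and other actin binders, 4 were higher and 1 was lower, and the increases included the nonmuscle calponins and transgelin. Cnn2 (ENSMUSG00000004665, chr10:79988584-79996062), a calponin of nonmuscle cells, was measured at 461 and 418 CPM in EV, 907 CPM in TC, and 940.1, 946 and 895 CPM in TC + ATA. TC and TC + ATA lay at about the same level and above both EV libraries, with a log2 fold change of 1.05 ± 0.10 SE, adjusted p = 5.88e-05. Cnn3 (log2 fold change 0.64 ± 0.09 SE, adjusted p = 6.36e-04) and Tagln2 (0.80 ± 0.12 SE, adjusted p = 0.00121), the nonmuscle relatives of calponin and transgelin, were also higher. The smooth muscle forms Cnn1 (log2 fold change −0.95 ± 0.50 SE, adjusted p = 0.199) and Tagln (1.01 ± 0.49 SE, adjusted p = 0.172) were not called. As shares of the RPKM sum of the 3 calponins, Cnn2 made up 64.2% and 63.3% in EV, 69.9% in TC and 70.6% to 71.8% in TC + ATA.

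Of the other actin binders, the smoothelin gene Smtn, whose product sits on stress fibers of contractile cells, was measured at 48.1 and 46.5 CPM in EV, 90.9 CPM in TC, and 71.5, 69.1 and 70.9 CPM in TC + ATA. Every TC and TC + ATA library exceeded both EV libraries, and the log2 fold change in TC was 0.94 ± 0.08 SE, adjusted p = 2.81e-05. Synpo encodes the actin-associated protein synaptopodin and was lower. It was measured at 170.3 and 160.5 CPM in EV, 45.2 CPM in TC, and 50.1, 51.0 and 48.0 CPM in TC + ATA, so that the groups with TC lay far below EV, and its log2 fold change (−1.87 ± 0.09 SE, adjusted p = 1.61e-06) was the largest decrease among the 45. Its relative Synpo2 and Lmod1, an actin nucleator of smooth muscle, were not called in TC (log2 fold changes 0.22 ± 0.16 and 0.26 ± 0.24, SE). Caldesmon (Cald1), which blocks myosin on actin, stayed between 789.6 and 826 CPM in all libraries. Of the 4380 exonic bases of Smtn, 714 overlap genes on the opposite strand.

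Of the 6 myosin genes, Myh9 and Myl6 were called, both higher. Myh9 (ENSMUSG00000022443, chr15:77760587-77842175), the heavy chain of nonmuscle myosin IIA, was measured at 675 and 635 CPM in EV, 1513 CPM in TC, and 1347, 1284 and 1221 CPM in TC + ATA. All libraries with TC lay above both EV libraries, with a log2 fold change in TC of 1.21 ± 0.10 SE, adjusted p = 2.96e-05. Myh10, the heavy chain of nonmuscle myosin IIB, was measured at 395 and 368 CPM in EV, 407 CPM in TC, and 443, 424 and 421 CPM in TC + ATA, with a log2 fold change of 0.09 ± 0.09 SE, adjusted p = 0.489. Myh9 made up 58.0% and 58.2% of the RPKM sum of Myh9, Myh10 and Myh11 in EV, 75.0% in TC and 70.1% to 71.1% in TC + ATA. The essential light chain gene Myl6 was measured at 592 and 465 CPM (EV), 741 CPM (TC) and 761, 790.0 and 779.7 CPM (TC + ATA) and was higher in TC (log2 fold change 0.49 ± 0.13 SE, adjusted p = 0.0225). It lost its call without any 1 of the TC + ATA libraries and in the fit of EV and TC alone. The regulatory light chain Myl9 and the kinase that phosphorylates regulatory light chains, Mylk, had log2 fold changes of −0.33 ± 0.15 and −0.62 ± 0.22 (SE), with adjusted p = 0.151 and 0.0627 by edgeR. Neither was called with all libraries, although the TC library lay below both EV libraries for each. Without EV 2 the log2 fold change of Myl9 was −0.47, and without EV 1 that of Mylk was −0.78. Each of these passed the threshold, in a fit with 1 EV library left.

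**Figure D2:**
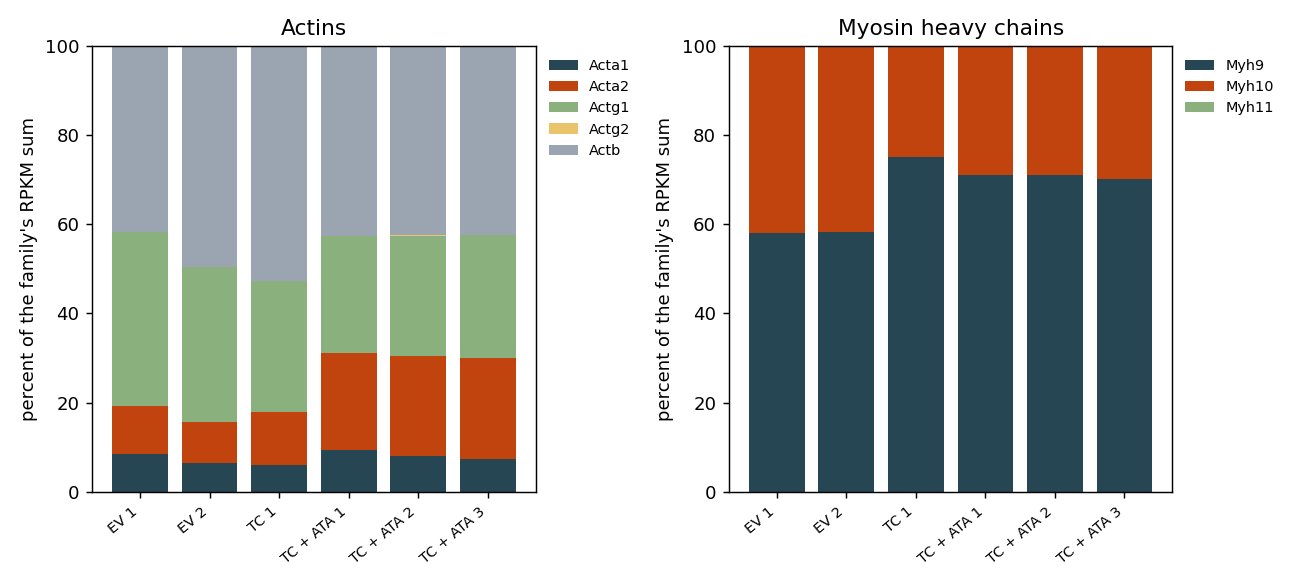
Share of each paralog in the RPKM sum of 5 actins (left, with Actb added) and of 3 myosin heavy chains (right), in percent, for each of the 6 libraries. Acta2 takes 21.9% to 22.6% of the actin sum in TC + ATA against 11.7% in TC, and Myh9 takes 75.0% of the myosin sum in TC against about 58% in EV.

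Tropomyosins, the coiled-coil proteins that lie along actin filaments and govern the access of myosin, were represented by 4 genes, of which 1 was called. Tpm3 was higher in TC, at 482 and 441 CPM in EV, 665 CPM in TC, and 624, 609 and 609 CPM in TC + ATA, and its log2 fold change was 0.53 ± 0.09 SE, adjusted p = 0.00257. Tpm1, Tpm2 and Tpm4 were not called and had log2 fold changes of 0.11 ± 0.10, −0.08 ± 0.08 and 0.04 ± 0.09 (SE). Vimentin (Vim), the main intermediate filament protein of fibroblasts, was measured at 3431 and 2789 CPM in EV, 4847 CPM in TC, and 4353, 4206 and 4040.0 CPM in TC + ATA. It was highest in the TC library (log2 fold change 0.64 ± 0.13 SE, adjusted p = 0.00658). Desmin (Des), the muscle form, was measured at 32.0 and 26.2 CPM in EV, 31.9 CPM in TC, and 42.4, 35.1 and 33.3 CPM in TC + ATA and was not called (log2 fold change 0.13 ± 0.16 SE, adjusted p = 0.603). Both Tpm3 and Vim lost their call in the fit of EV and TC alone.

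The 8 LIM and PDZ-LIM proteins, adaptors that sit on actin filaments and at focal adhesions, held most of the decreases, with 5 lower and 2 higher. Pdlim1 (ENSMUSG00000055044, chr19:40221173-40271842) was measured at 59.1 and 50.5 CPM in EV, 161 CPM in TC, and 139, 139.5 and 139.7 CPM in TC + ATA, and its log2 fold change (1.55 ± 0.10 SE, adjusted p = 5.84e-06) was the largest increase of the 45. Pdlim7 was also higher (log2 fold change 0.42 ± 0.07 SE, adjusted p = 0.00281), a call lost in the fit of EV and TC alone. Csrp2 (ENSMUSG00000020186, chr10:110919789-110939622), a smooth muscle LIM protein, was measured at 123 and 108 CPM in EV, 53.9 CPM in TC, and 42.4, 42.1 and 40.3 CPM in TC + ATA. Its groups with TC lay below both EV libraries, with a log2 fold change of −1.10 ± 0.10 SE, adjusted p = 5.54e-05, and Csrp1 (log2 fold change −0.80 ± 0.13 SE, adjusted p = 0.00148) and Pdlim5 (−0.53 ± 0.10 SE, adjusted p = 0.00396) were lower as well. Fhl1, a muscle LIM protein, was measured at 12.0 and 10.1 CPM in EV, 5.73 CPM in TC, and 16.3, 12.6 and 11.0 CPM in TC + ATA. The TC library was the lowest of the 6, with a log2 fold change against EV of −0.95 ± 0.23 SE, adjusted p = 0.0144. Fhl2, a LIM-only cofactor that can bind SRF, was lower by less (log2 fold change −0.28 ± 0.08 SE, adjusted p = 0.0353). The Fhl2 call was lost without any 1 of the TC + ATA libraries and in the fit of EV and TC alone. Fhl3 was not called (log2 fold change 0.05 ± 0.09, SE).

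Upstream regulators of contraction were called in both directions, with 4 of 8 higher and 2 lower. Rock2, a kinase that activates myosin, was measured at 139 and 174 CPM in EV, 270.1 CPM in TC, and 270.0, 273 and 265 CPM in TC + ATA. All libraries with TC lay above EV, with a log2 fold change of 0.79 ± 0.12 SE, adjusted p = 0.00129, whereas the related kinase gene Rock1 was measured at 47.8 and 61.4 CPM (EV), 57.3 CPM (TC) and 54.6, 55.7 and 55.7 CPM (TC + ATA) and was not called (0.07 ± 0.13, SE). Diaph3, a formin that elongates actin filaments, was measured at 76.3 and 78.6 CPM (EV), 142 CPM (TC) and 132, 125 and 125 CPM (TC + ATA) and was higher (log2 fold change 0.88 ± 0.08 SE, adjusted p = 4.87e-05). Diaph1 (0.41 ± 0.10 SE, adjusted p = 0.0131) and Rhoa (0.45 ± 0.11 SE, adjusted p = 0.0121) were higher by smaller log2 fold changes. Cdc42ep3, an effector of Cdc42 that organizes actin and septins, was lower (log2 fold change −0.61 ± 0.10 SE, adjusted p = 0.00207), as was Rhob (−0.31 ± 0.10 SE, adjusted p = 0.0385), and Rhoc was not called (−0.03 ± 0.12, SE). The calls of Rhoa, Rhob and Diaph1 were lost in the fit of EV and TC alone, and that of Rhob also without TC + ATA 2 or 3.

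In the cofilin group, Wdr1, which speeds the disassembly of filaments by cofilin, was measured at 168 and 153 CPM in EV, 284 CPM in TC, and 309, 295 and 286 CPM in TC + ATA. Every library with TC lay above both EV libraries, with a log2 fold change of 0.82 ± 0.09 SE, adjusted p = 1.68e-04. Cofilin itself (Cfl1) and the kinase gene Limk1, whose product inactivates cofilin, had log2 fold changes of 0.15 ± 0.11 and 0.03 ± 0.09 (SE) and were not called.

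In TC + ATA against TC, 2 of the 45 genes were higher and 0 were lower by the edgeR test, while 0.426% and 0.156% of all genes were called in these directions. At an unadjusted p under 0.05, 13 of the 45 differed, beside 1048 higher and 733 lower of all 18539 genes. This comparison uses the same TC library as TC against EV, in the opposite role, so the 2 comparisons are not separate results. The genes called were Acta2 and Myl9. Acta2 had a log2 fold change of 0.97 ± 0.15 SE, adjusted p = 0.0303, and its 3 values of 1242, 1229.8 and 1181 CPM with ATA were all above the 620.0 CPM of TC and above the EV libraries. Myl9 (ENSMUSG00000067818, chr2:156775420-156781658), the regulatory light chain of smooth muscle and nonmuscle myosin, was measured at 9.71 and 7.89 CPM in EV, 7.02 CPM in TC, and 15.8, 16.5 and 17.7 CPM in TC + ATA. The TC + ATA libraries exceeded every other library, with a log2 fold change of 1.25 ± 0.15 SE, adjusted p = 0.0103. As a share of the RPKM sum of 5 actins, Acta2 made up 10.8% and 9.16% in EV, 11.7% in TC and 21.9% to 22.6% in TC + ATA.

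No other member passed the threshold in the edgeR fit, and those with the largest fitted differences were Myh11, Lmod1, Fhl1 and Mylk. DESeq2 also called Lmod1, Fhl1, Mylk and Tpm2 higher and Smtn lower. Leiomodin (Lmod1) was measured at 1.64 and 1.48 CPM in EV, 1.87 CPM in TC, and 5.35, 4.40 and 4.18 CPM in TC + ATA, with a log2 fold change of 1.31 ± 0.23 SE, adjusted p = 0.0545. Fhl1, with the CPM values given above, had 1.21 ± 0.22 SE, adjusted p = 0.0608, so that its TC + ATA libraries overlapped the range of EV and lay above TC. Mylk was measured at 3.36 and 4.21 CPM in EV, 2.46 CPM in TC, and 4.94, 4.44 and 5.15 CPM in TC + ATA and had a log2 fold change of 0.97 ± 0.21 SE, adjusted p = 0.102. All 3 TC + ATA libraries lay above TC for Lmod1, Fhl1 and Mylk. For Fhl1 and Mylk, TC was the lowest of all libraries, and this same TC value enters their difference from EV. Myh11 had the largest log2 fold change of the 45 (1.42 ± 0.77, SE), but rests on 13 counts in TC and 29 to 36 in TC + ATA (adjusted p = 0.623). Of the other members known from muscle, Actg2 had a log2 fold change of 0.79 ± 0.38, Cnn1 0.68 ± 0.48, Des 0.21 ± 0.15 and Tagln −0.23 ± 0.46 (SE), and none of these 4 was called. The contractile markers of smooth muscle (Myh11, Lmod1, Actg2, Des, Myocd and Smtn) summed to 82.7 and 75.3 CPM in EV, 125 CPM in TC and 109.7 to 121 CPM in TC + ATA, mainly from Smtn and Des, and their part in the values above was not tested. Smtn and Csrp2 were the members farthest below 0, with log2 fold changes of −0.37 ± 0.07 and −0.37 ± 0.09 (SE) and adjusted p = 0.0757 and 0.145 by edgeR.

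Across the 45, every TC + ATA value exceeded that of TC for 23 and fell short of it for 15, beside 30.5% and 32.7% of all genes. The median log2 fold change was 0.04 for the members and 0.00 for all genes. The count of calls in this comparison depended on the fit, for the members and for all genes. Over all genes, edgeR called 79 higher and 29 lower and DESeq2 called 236 and 85. The moves of the other fits over all genes are given in the closing section. DESeq2 called 6 members higher and 1 lower, and the fit of TC and TC + ATA alone called 10 and 5. Without EV 1 the counts were 10 and 8, and without EV 2 they were 10 and 5, whereas 1, 0 and 0 members were higher without TC + ATA 1, 2 and 3. Acta2 lost its call without any 1 of the TC + ATA libraries and Myl9 without TC + ATA 2 or 3, although over the fits without 1 TC + ATA library the log2 fold changes ran from 0.96 to 1.00 for Acta2 and from 1.21 to 1.29 for Myl9.

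**Figure D3:**
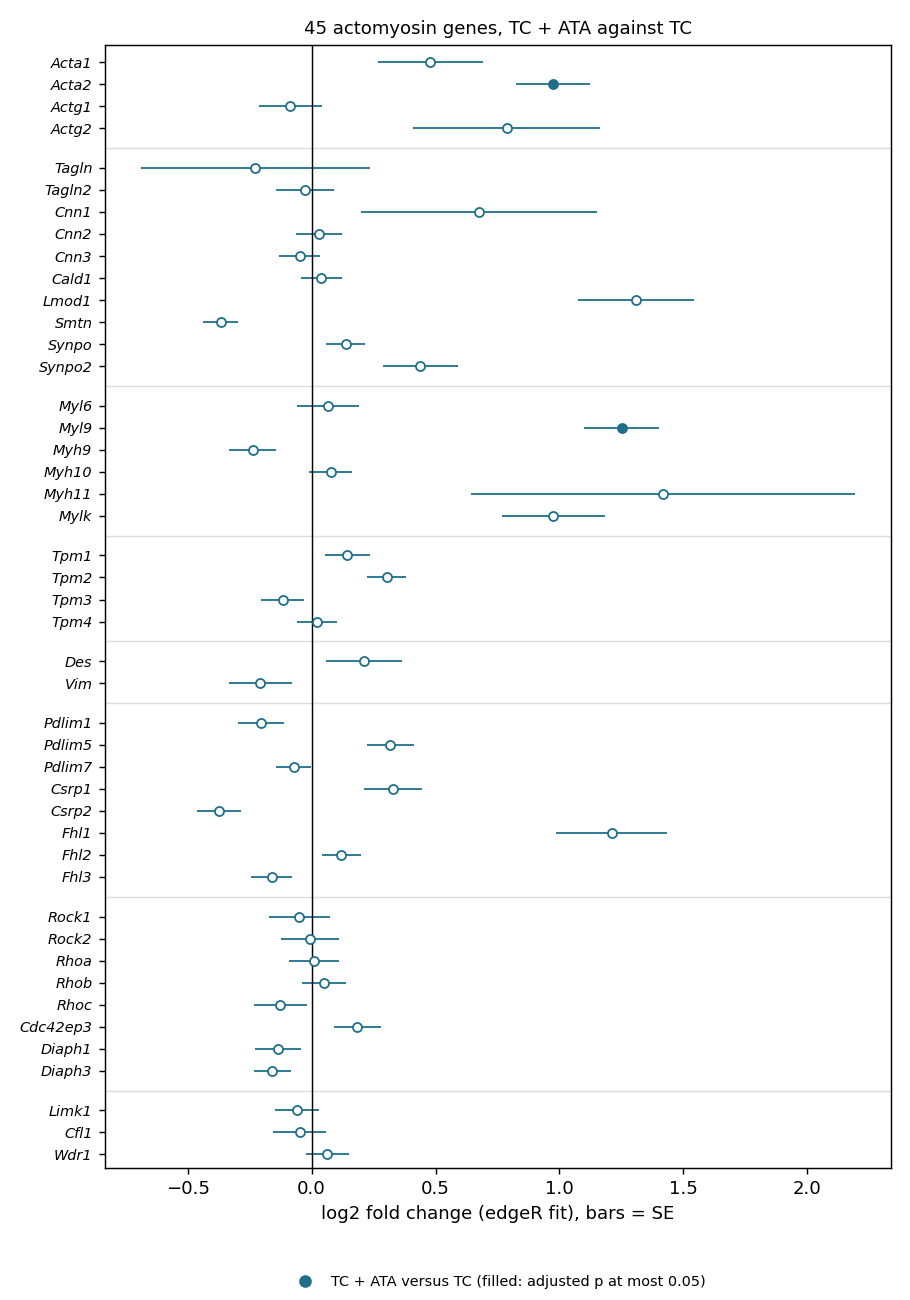
Log2 fold change of each of the 45 genes in TC + ATA versus TC, grouped by role, with the standard error of the edgeR fit as bars and filled points for an adjusted p of at most 0.05. The filled points are Acta2 at 0.97 and Myl9 at 1.25, and most of the other genes lie close to 0.

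**Figure D4:**
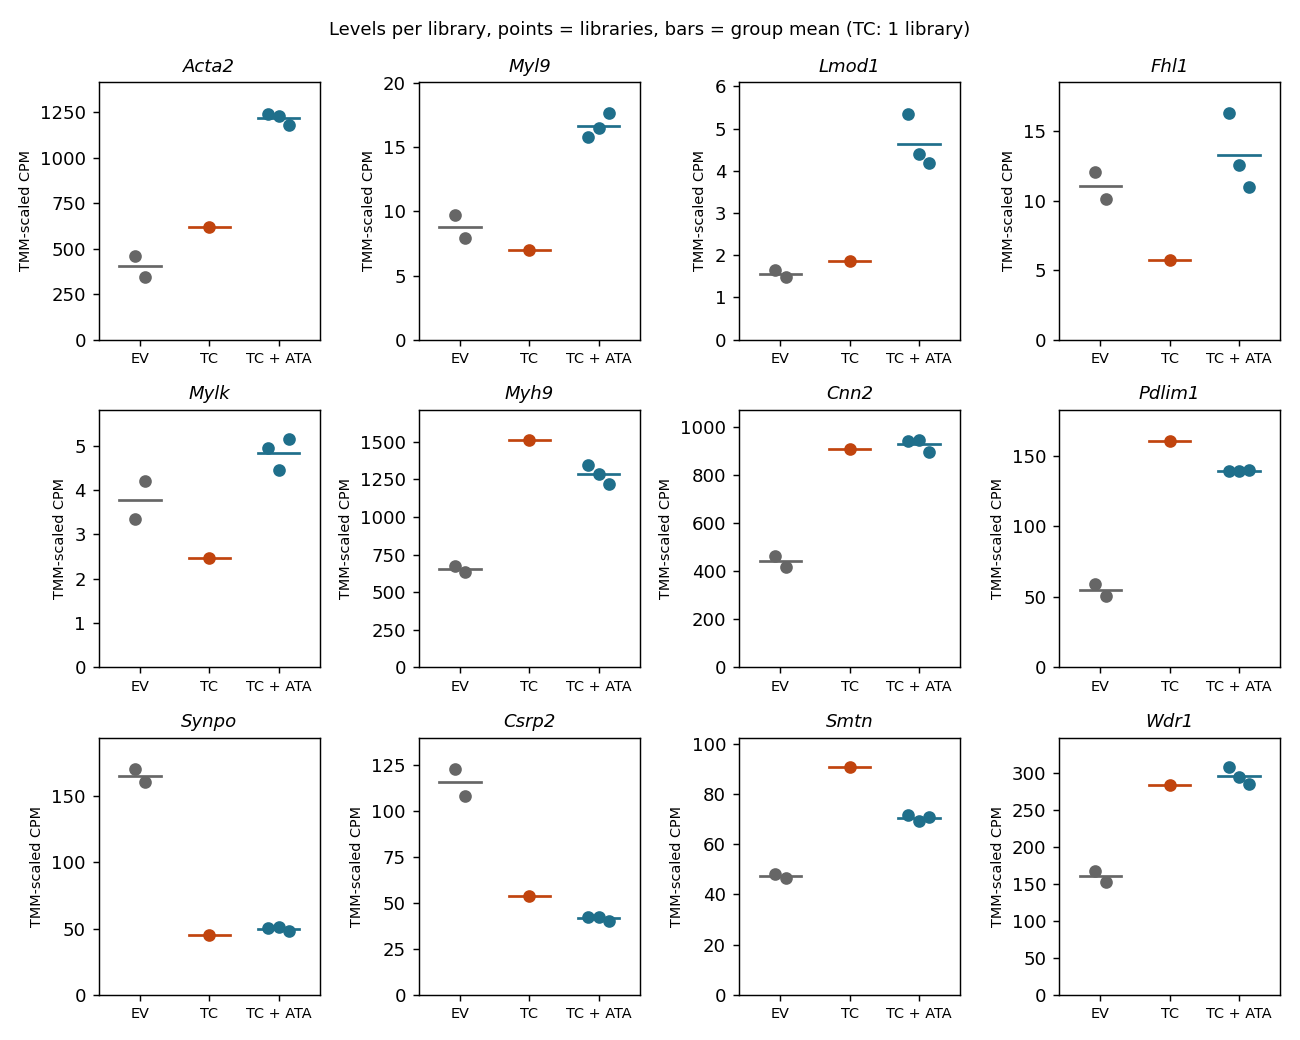
TMM-scaled CPM of 12 members in each library, with points for libraries and horizontal bars for the group mean (TC has 1 library), each axis starting at 0. The TC + ATA points lie above all others for Acta2, Myl9, Lmod1 and Mylk, whereas for Cnn2, Pdlim1, Synpo and Wdr1 the TC and TC + ATA points lie together and apart from EV.

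In TC + ATA against EV, the comparison with replicates on both sides, 22 members were higher and 6 were lower, while 18.0% and 18.6% of all genes were called in these directions. The median log2 fold change was 0.34, beside −0.01 for all genes. This comparison shares EV with the first and the TC + ATA libraries with the second, so the calls are given as each comparison's own values. It rests on 3 TC + ATA libraries, whereas TC against EV rests on 1 TC library. A call against EV in only 1 of these groups is therefore no measure of TC + ATA against TC. Among the called members, Acta2 had the largest increase (log2 fold change 1.60 ± 0.12 SE, adjusted p = 1.09e-05), followed by Lmod1 (1.57 ± 0.18 SE, adjusted p = 1.70e-04), Pdlim1 (1.35 ± 0.08 SE, adjusted p = 2.21e-06) and Cnn2 (1.08 ± 0.08 SE, adjusted p = 7.98e-06). Synpo (−1.73 ± 0.06 SE, adjusted p = 1.72e-07) and Csrp2 (−1.48 ± 0.07 SE, adjusted p = 7.52e-07) had the largest decreases. Called here and not in TC against EV were Acta1 (log2 fold change 0.57 ± 0.16 SE, adjusted p = 0.0235), Lmod1, Synpo2 (0.66 ± 0.12 SE, adjusted p = 0.00232), Myl9 (0.92 ± 0.11 SE, adjusted p = 2.27e-04), Tpm1 (0.25 ± 0.07 SE, adjusted p = 0.0236) and Tpm2 (0.22 ± 0.06 SE, adjusted p = 0.0193). Fhl1 was called lower in TC against EV and was not called with ATA (log2 fold change 0.26 ± 0.16 SE, adjusted p = 0.249), and neither was Fhl2 (−0.16 ± 0.06 SE, adjusted p = 0.0712). Pdlim5 (−0.21 ± 0.07 SE, adjusted p = 0.0471) lost its call with DESeq2 and with RLE factors, and Acta1 with DESeq2. Tpm1, Tpm2 and Pdlim5 also lost theirs without any 1 of the TC + ATA libraries, and Acta1, Vim, Diaph1 and Rhob without TC + ATA 1 or 2. When 1 library was left out, the log2 fold change of Acta1 ran from 0.34 to 0.85.

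Other genes of the pathway were read from the same fit. They were listed by role, with earlier results of these data known. Of 7 tested genes for SRF and its cofactors, 1 was higher in TC against EV and 0 were lower by edgeR, with a median log2 fold change of 0.13. This share (14.3% higher) is close to the 14.8% over all genes. The gene called was Elk4, a ternary complex factor (log2 fold change 0.52 ± 0.10 SE, adjusted p = 0.00391). Srf itself was measured at 101 and 104 CPM in EV, 101 CPM in TC, and 108, 111 and 105 CPM in TC + ATA, with all libraries within a narrow range (log2 fold change −0.01 ± 0.08 in TC against EV, SE). Scai, an inhibitor of the MRTFs, had a log2 fold change of 0.22 ± 0.13, and the ternary complex factors Elk1 and Elk3 had −0.15 ± 0.09 and 0.13 ± 0.08 (SE). Mrtfa and Mrtfb had log2 fold changes of 0.11 ± 0.08 and 0.31 ± 0.10 (SE) and were not called in TC against EV. Mrtfb was higher in TC + ATA against EV (0.35 ± 0.08 SE, adjusted p = 0.00845) and was not called in TC + ATA against TC (0.03 ± 0.10, SE).

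Of 19 other reported SRF targets of the actin cytoskeleton, 12 were higher (63.2%) and 1 was lower (5.26%) in TC against EV, beside 14.8% and 13.2% of all genes, with a median log2 fold change of 0.55 beside −0.03 for all genes. Pdlim2 was measured at 28.2 and 26.5 CPM in EV, 97.2 CPM in TC, and 104, 103 and 99.9 CPM in TC + ATA (log2 fold change 1.83 ± 0.08 SE, adjusted p = 1.00e-06), and Tuft1 (1.44 ± 0.14 SE, adjusted p = 9.10e-05) and Cfl2, the muscle cofilin (1.21 ± 0.08 SE, adjusted p = 1.07e-05), were the next largest. Lima1, an actin-stabilizing LIM protein, was lower (−0.67 ± 0.09 SE, adjusted p = 6.88e-04). Of 27 tested genes of nonmuscle myosin and actin turnover, 8 were higher (29.6%) and 2 were lower (7.41%), with a median of 0.22. Among the called genes, the largest increases were those of Tmsb4x (0.83 ± 0.14, SE) and Tmsb10 (0.71 ± 0.15), which encode the thymosins that sequester actin monomers, and of the regulatory light chain Myl12a (0.67 ± 0.13). The genes lower were Myl6b (−0.61 ± 0.18, SE) and Arpc1a (−0.43 ± 0.09), a light chain and a subunit of the complex that branches actin filaments. Myl6b lost its call with DESeq2, without EV 1 and without any 1 of the TC + ATA libraries. In TC + ATA against TC, 0 genes of these 3 lists were called in either direction by edgeR, and 1 was called higher by DESeq2 (Lima1). At an unadjusted p under 0.05 were 7 of the 53 genes, beside 1048 higher and 733 lower of all 18539 genes.

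The promoter matches can be set beside these calls as a description, with 16 and 8 of all 45 members and 14.8% and 13.2% of all genes higher and lower in TC against EV. The corresponding background was 2 and 0 members, with 0.426% and 0.156% of genes, in TC + ATA against TC, and 22 and 6 members, with 18.0% and 18.6% of genes, in TC + ATA against EV. Nothing particular to either motif is read from these small counts. Of the 7 members with a CArG box, 2 were higher and 2 were lower in TC against EV, 1 was higher in TC + ATA against TC, and 4 were higher in TC + ATA against EV. Of the 9 with a TEAD core, 3 were higher and 0 were lower in TC against EV, 1 was higher in TC + ATA against TC, and 6 were higher in TC + ATA against EV. Of the genes called with ATA, Acta2 held a TEAD core and Myl9 a CArG box in these windows. Only the exact CArG pattern was searched, so a box with a G or C among its middle bases would be missed.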

How the data were processed

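RNA of NIH3T3 cells was poly(A)-selected, made into libraries with a kit that does not mark strand, and sequenced paired-end. Per the labels and the study's methods, the authors aligned reads with HISAT2 (version 2.2.1 in the submitters' processing notes) to the mouse genome and counted them per gene with featureCounts, and the deposited values are raw counts of 1 library each. The annotation release and the treatment of strand and multiply mapped reads are not given in the sources used here. Gene symbols and exon lengths were taken from GENCODE M21, which matched 55141 of the 55401 identifiers.

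Counts were fitted with edgeR 4.0.16 in R 4.3.3 (TMM, filterByExpr, quasi-likelihood test) over all 6 libraries without covariates, which left 3 residual degrees of freedom, and p-values were adjusted by Benjamini-Hochberg over the 18539 genes kept. Standard errors are the absolute log2 fold change over the square root of F. The fit was tested on simulated data. Library totals of 58471484 to 74413193 counts make counting error small except for genes under about 1 CPM. No pair of libraries agreed within sampling noise. DESeq2 1.42.0, other normalizations, filters and sets of libraries were alternatives. All members could be named, with values in every library for those called in TC versus EV at an absolute log2 fold change of at least 1, those called in TC + ATA versus TC, and at least 1 of each role. Of the pathway lists, SRF and its cofactors could always be named, and otherwise up to 3 genes higher and 3 lower with a mean of at least 5 CPM. Actb was named as well, beside the actins of the list. The members and lists were chosen with earlier results of these data known. Protein sequences were not used here, and 1 pathway list is not reported here.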

Additional observations from a re-analysis of the deposited data

How the results depend on the processing

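TC has 1 library, so each test involving it borrows the spread of the other groups. For TC versus EV, the 16 members higher became 10 with only the groups compared and 15 to 19 when 1 library was left out, and the 8 lower became 5 at an adjusted p of 0.01 and 6 to 10 when 1 library was left out. Over all genes, the 2735 higher became 1780 at 0.01, and the 2456 lower became 1401 at 0.01 and 1912 to 3708 when 1 library was left out (the highest without EV 1). For TC + ATA versus TC, the 2 members higher became 6 with DESeq2, 5 with all genes of at least 1 count, 10 with only the groups compared, 0 at 0.01 and 0 to 10 when 1 library was left out, and the 0 lower became 1, 2 and 5 under the first 3 of these and 0 to 8 when 1 library was left out. Over all genes, the 79 higher became 236, 242, 795 and 22 under the same 4 alternatives and 7 to 808 when 1 library was left out, and the 29 lower became 85, 108, 633 and 7, and 3 to 762. For TC + ATA versus EV, the 3449 genes lower became 2147 at 0.01. The cause of these moves was not tested. The replicate numbers were not shown to pair the libraries (correlation of same-numbered deviations −0.03 and −0.09). A fit that took these numbers as the replicate block called 9 members higher for TC versus EV, and Acta2 was not among them. For TC + ATA versus TC this fit called 2 (Myl9 and Fhl1). Over all genes it called 1717 higher and 1467 lower for TC versus EV, 32 and 8 for TC + ATA versus TC, and 2195 lower for TC + ATA versus EV. For the 53 genes of the 3 pathway lists, recomputed after seeing the data, the 21 higher in TC versus EV became 12 with only the groups compared, and the 3 lower became 5 with library size alone, 1 with only the groups compared and 2 to 8 when 1 library was left out (5 without EV 1 and 8 without EV 2). In TC + ATA versus TC the 0 higher became 1 with DESeq2, 4 with only the groups compared and 0 to 4 when 1 library was left out, and the 0 lower became 5 with only the groups compared and 0 to 7 when 1 library was left out. In TC + ATA versus EV the 4 lower became 1 with the replicate block, 2 at an adjusted p of 0.01 and, when 1 library was left out, 2 to 6. Of the members called, 14 of 24, 0 of 2 and 21 of 28 kept their call in all alternatives. The sign of the log2 fold change turned in 26 of 135 pairs of member and comparison. In the edgeR fit of all 6 libraries, none of these pairs was called and their absolute values were at most 0.28. With library size alone, the turned values were Acta1 −0.0035, Actg1 −0.028, Myh10 −0.012, Tpm1 −4.18e-04, Tpm4 −0.065, Fhl3 −0.052, Rock1 −0.046, Limk1 −0.075 in TC versus EV, and Rock2 0.015 in TC + ATA versus TC, and Tpm4 −0.022, Rock1 −0.074 in TC + ATA versus EV. With the replicate block, the turned values were Acta1 −0.085, Actg1 −0.0062, Myh11 0.34, Des −0.0037, Srf 0.0087 in TC versus EV, and Actg1 0.018, Tagln2 0.067, Cnn3 0.0051, Rhob −0.017, Limk1 0.0049, Cfl1 0.029 in TC + ATA versus TC, and Actg1 0.012, Cald1 0.0047, Limk1 0.012 in TC + ATA versus EV. With DESeq2, the turned values were Actg1 0.0027, Cald1 0.0099 in TC + ATA versus EV. With RLE factors, the turned values were Actg1 0.0048, Cald1 0.012 in TC + ATA versus EV, and Srf 8.25e-05 in TC versus EV. With the filter of 1 CPM, the turned values were Rock2 0.0069 in TC + ATA versus TC, and Actg1 0.017, Cald1 0.024, Limk1 0.0033 in TC + ATA versus EV, and Srf 0.0037 in TC versus EV. With only the groups compared, the turned values were Rock2 0.0053 in TC + ATA versus TC, and Cald1 7.48e-04 in TC + ATA versus EV. When 1 library was left out, the ranges that turned were Acta1 −0.15 to 0.38, Actg1 −0.090 to 0.24, Myh11 −0.69 to 1.20, Des −0.010 to 0.27, Fhl3 −0.021 to 0.12, Rock1 −0.11 to 0.26, Rhoc −0.17 to 0.11, Srf −0.044 to 0.0061 in TC versus EV, and Rock2 −0.014 to 0.0082, Rhoa −0.0075 to 0.036 in TC + ATA versus TC, and Actg1 −0.16 to 0.16, Cnn1 −0.58 to 0.12, Cald1 −0.039 to 0.027, Rock1 −0.16 to 0.22, Limk1 −0.057 to 0.014, Cfl1 −8.93e-04 to 0.22 in TC + ATA versus EV. Of these turned values, Actg1 at 0.16 (adjusted p = 6.57e-04 by edgeR) and Rock1 at −0.16 (adjusted p = 0.0196), both without EV 1, passed the threshold.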
